A study of Mus musculus with 9 samples.

Results

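The 37 genes described here encode the enzymes of glycolysis, the glucose carrier Slc2a1, the pyruvate dehydrogenase kinases, and the hypoxia-inducible factor (HIF) subunits with their regulators and well-known HIF targets. They were taken by gene symbol from a table of 56748 genes, in which they filled 38 entries because Aldoa has a second identifier with 4 to 42 counts, left out here. All 37 were among the 19486 genes that entered the tests. RNA was counted in 9 libraries of lung endothelial cells from C57BL/6 mice aged 6 weeks, sorted as viable cells (no DAPI signal) without CD45 and with CD31 on their surface. There were 3 libraries each of the genotypes Notch1f/f, DNMAML and WT. Notch1f/f commonly denotes a receptor gene Notch1 that a recombinase can delete, and DNMAML a truncated Mastermind-like protein that occupies Notch receptors and keeps them from activating transcription. The sources used here give neither the recombinase nor the promoter and cells it acts in. They also do not say that replicates are different animals, and a p-value here then covers the spread among these libraries alone, which may be technical.

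Glycolysis splits glucose into pyruvate: its preparatory steps spend ATP, its payoff steps return it, and lactate dehydrogenase then turns pyruvate into lactate. Endothelial cells draw much of their ATP from this route even when oxygen is plentiful. HIF is a pair of an alpha subunit (Hif1a or Epas1) and Arnt; with oxygen, prolyl hydroxylases of the Egln family mark the alpha subunit for destruction through Vhl, and without it HIF binds short DNA elements near many glycolysis genes. This control acts on the protein, so the RNA of Hif1a or Epas1 does not show how active HIF was.

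Total counts ran from 15522100 to 27842496 per library. The summed level of 8 pan-endothelial markers lay between 13673 and 16465 counts relative to the scaled library size (CPM) in every library. Notch1 had 70.8, 29.5 and 176 CPM in Notch1f/f libraries 1, 2 and 3, against 679, 872 and 777 CPM in DNMAML and 766, 909 and 811 CPM in WT; its difference of -3.17 between Notch1f/f and WT on the log2 scale missed the threshold of edgeR's quasi-likelihood test, with a Benjamini-Hochberg adjusted p = 0.0634. The Notch1f/f libraries were unlike each other in their cell cycle genes. The sum of 8 cell cycle markers was 48.2, 282 and 318 CPM in Notch1f/f, 220, 245 and 192 CPM in DNMAML, and 14.9, 13.6 and 10.1 CPM in WT libraries. Notch1f/f replicate 1 thus stood well below the other Notch1f/f libraries, and every Notch1f/f and DNMAML library stood above every WT library. In edgeR's test 5 of these 8 markers rose in Notch1f/f against WT, and 0 of 8 passed in DNMAML against WT, where all 8 had an unadjusted p below 0.05. Values by library are given in the order of replicates 1, 2 and 3 throughout.

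The members covered a wide range of levels. Divided by exon length, Epas1 stood first, at 1429 ± 103 CPM per kilobase in WT (SD, n = 3), followed by Aldoa, the aldolase of most tissues, at 113 ± 6.25, Pkm, pyruvate kinase, at 49.8 ± 1.13, and Bnip3l, a mitochondrial receptor for mitophagy, at 46.5 ± 1.73. The WT libraries of each of these 4 genes did not overlap those of the next gene in the order. Ldha, Gapdh and Gpi1 came next, at 33.1 ± 6.76, 33.0 ± 4.36 and 30.8 ± 1.98 CPM per kilobase, and their WT libraries overlapped. At the low end Hk2, Egln3, Aldoc and Eno2 had WT means of 0.503, 0.203, 0.198 and 0.123 CPM per kilobase, and Aldoc had 0 counts in WT replicate 2 while Eno2 had 0 counts in Notch1f/f replicates 2 and 3.

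**Figure D1:**
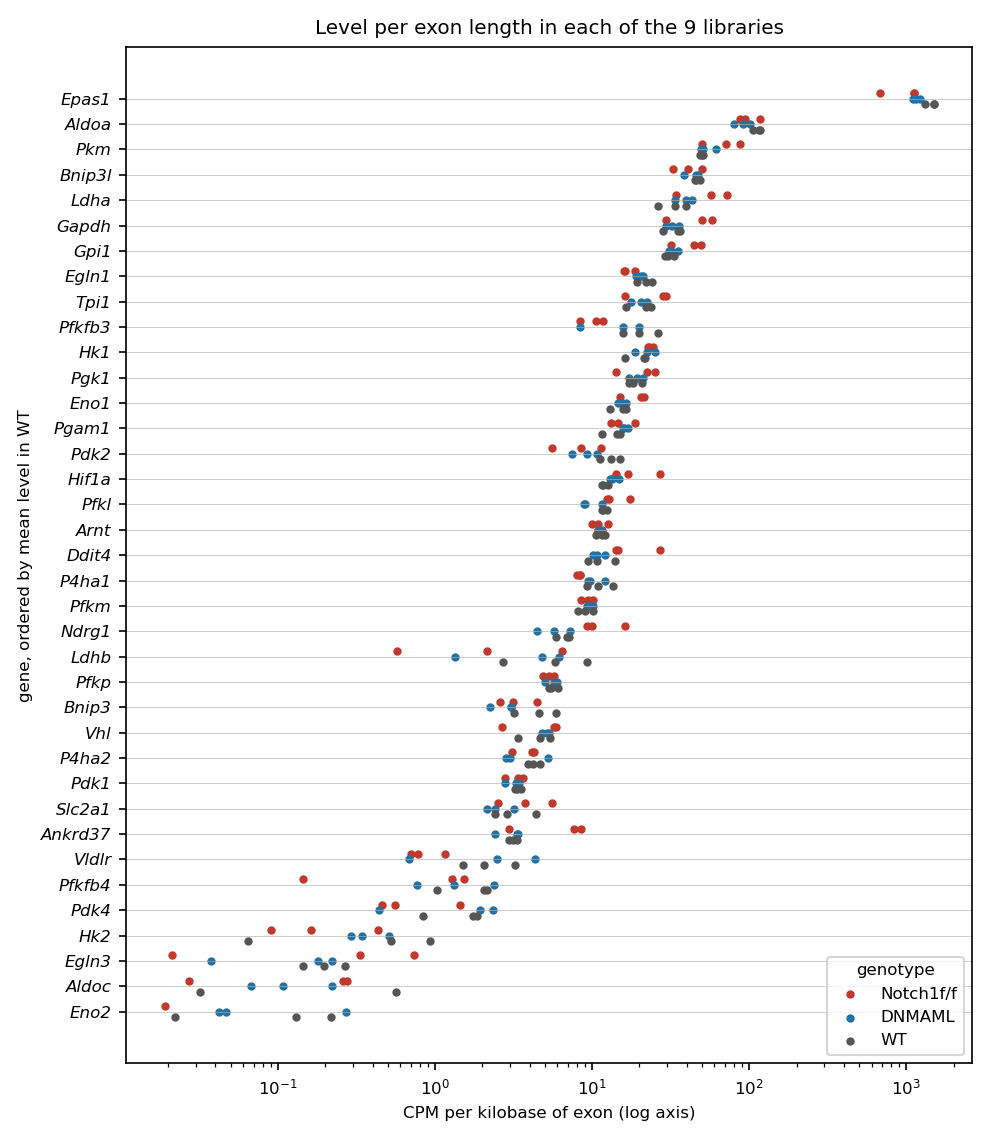
Level of each of the 37 genes in CPM per kilobase of exon (log axis) in all 9 libraries, ordered by the WT mean; each point is a library, colored by genotype, and libraries with 0 counts are not drawn. Epas1 lies at 683 or above in every library, while Eno2, Aldoc and Egln3 lie below 1.

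Within enzyme families a single gene usually supplied most of the RNA. Per length, Hk1 made up 99.1% of Hk1 and Hk2 together in Notch1f/f, 98.3% in DNMAML and 97.7% in WT libraries (means, n = 3 each). The phosphofructokinases were mixed, with Pfkl at 49.0 ± 2.98% of the family in Notch1f/f, 39.0 ± 3.59% in DNMAML and 44.8 ± 1.81% in WT (SD, n = 3). Of the lactate dehydrogenase RNA, Ldha made up 95.1 ± 4.56% in Notch1f/f, 90.4 ± 5.75% in DNMAML and 85.6 ± 4.78% in WT, with overlapping libraries. Epas1 exceeded Hif1a by far: Hif1a made up 1.26%, 3.83% and 1.48% of the pair in Notch1f/f, 1.31%, 1.15% and 1.05% in DNMAML, and 0.777%, 0.765% and 0.955% in WT libraries. Each Notch1f/f and each DNMAML library lay above every WT library in this share.

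No member of the 37 passed the test in any of the 3 comparisons. The test was edgeR's quasi-likelihood test over all 9 libraries with a Benjamini-Hochberg adjusted p below 0.05 over all 19486 genes. For Notch1f/f against WT, 0.836% of all genes passed, and 16 members, against 13.4% of all genes, had an unadjusted p below 0.05. For DNMAML against WT, 0.00513% of all genes passed, and 2 members, against 5.97% of all genes, had an unadjusted p below 0.05. For Notch1f/f against DNMAML these shares of all genes were 0.0205% and 6.37%, and 9 members had an unadjusted p below 0.05. DESeq2 called 2 members higher and 1 lower in Notch1f/f against WT, beside 2.91% and 2.54% of all genes. It called 0 members in DNMAML against WT, beside 1.12% of all genes higher and 0.24% lower, and 1 higher in Notch1f/f against DNMAML, beside 0.267% of all genes. With limma-voom 0 members passed in any comparison, beside 0.185% of all genes higher and 0.169% lower in Notch1f/f against WT, 0.0103% each way in Notch1f/f against DNMAML and 0% in DNMAML against WT. The comparisons share libraries, so their members' values are not independent of each other. Replicate number, taken below to pair WT and DNMAML libraries, is not used in these fits. With it as a block in those 6 libraries, edgeR called 1.17% of all genes higher and 0.541% lower in DNMAML against WT, and 0 members.

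**Figure D2:**
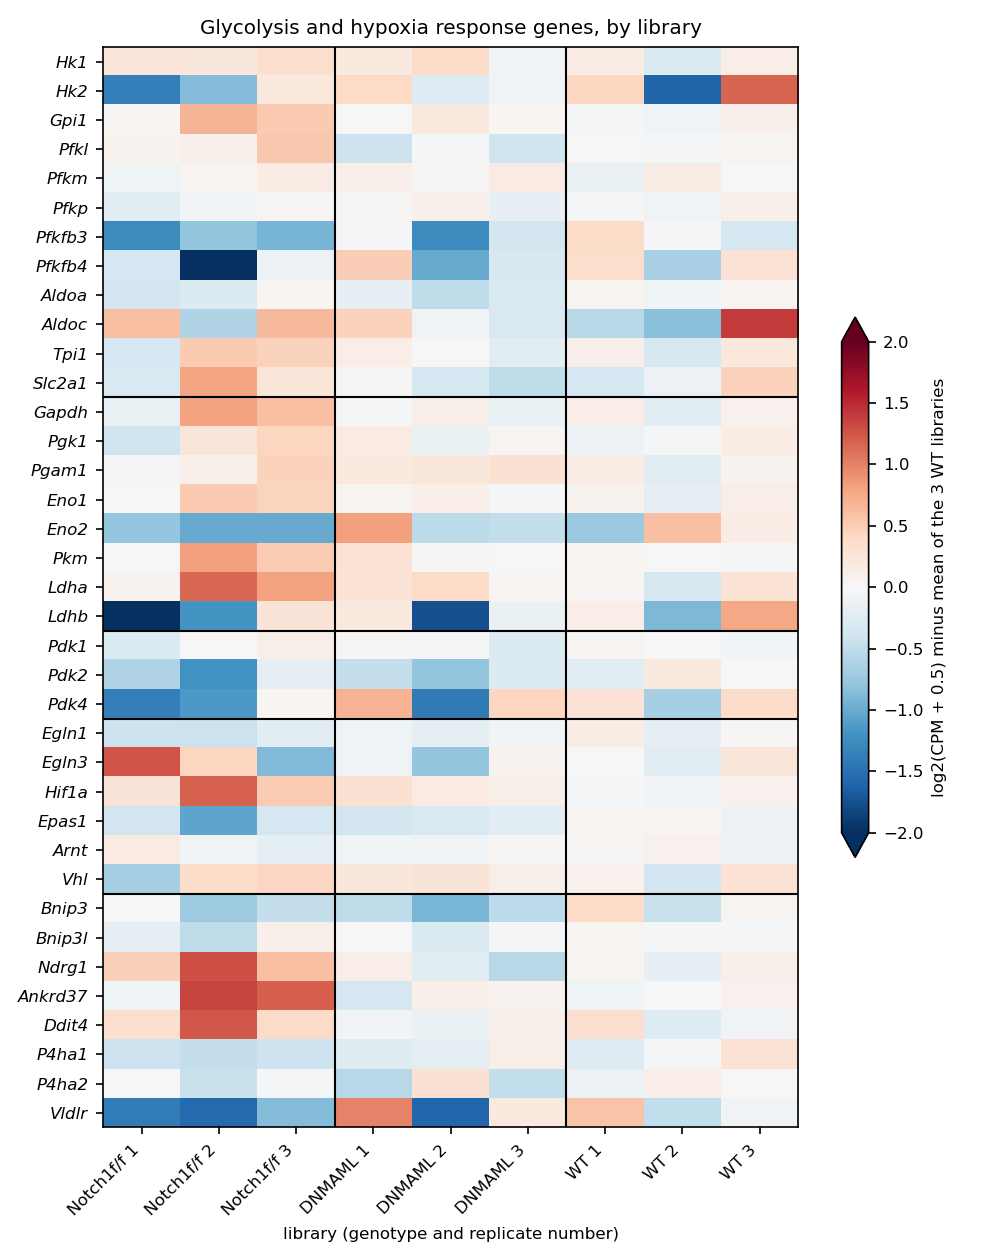
Log2(CPM + 0.5) of the 37 genes in each library minus the mean of the 3 WT libraries, with rows in the order glucose entry and preparatory steps, payoff steps and lactate, pyruvate dehydrogenase kinases, HIF subunits and their control, and other hypoxia response genes. Notch1f/f replicates 2 and 3 are red for Gpi1, Gapdh, Pkm, Ldha, Ndrg1 and Ankrd37, while Notch1f/f replicate 1 is near white for Gpi1, Gapdh, Pkm and Ldha.

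The 12 genes of glucose entry and the preparatory steps moved in no common direction in Notch1f/f against WT, with 6 log2 differences above 0 and 6 below. Their median was -0.02, beside 0.02 over all genes tested. Pfkfb3 (ENSMUSG00000026773, chromosome 2, 11476244 to 11558888, GRCm39) makes the sugar bisphosphate that activates phosphofructokinase and is known as a driver of glycolysis in sprouting endothelium. Its level was 62.9, 88.4 and 79.6 CPM in Notch1f/f, 149, 63.0 and 119 CPM in DNMAML, and 198, 151 and 119 CPM in WT libraries. Every Notch1f/f library lay below every WT library, while the DNMAML libraries overlapped both. Notch1f/f differed from WT by -1.02 on the log2 scale (SE 0.30, 3 libraries per group), with an adjusted p = 0.160 in edgeR's test. In 4 other fits Pfkfb3 fell in Notch1f/f. These were DESeq2 (adjusted p = 0.0142) and edgeR with only the 6 libraries compared (adjusted p = 0.0498, beside 0.452% of all genes called lower), without DNMAML replicate 2 (adjusted p = 0.0241, beside 0.777%) and without a filter on low counts (beside 2.26%). Across the settings tried its log2 difference lay between -1.18 and -0.81 and its adjusted p between 1.24e-07 and 0.427. The lowest adjusted p came from edgeR's fit without a filter on low counts.

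Hk1, which traps glucose in the cell by phosphorylation, had 198, 194 and 208 CPM in Notch1f/f, 191, 214 and 159 CPM in DNMAML, and 184, 138 and 182 CPM in WT libraries. The Notch1f/f libraries were all above the WT libraries, by a log2 difference of 0.25 (SE 0.15, edgeR adjusted p = 0.514). Pfkl, the liver-type phosphofructokinase, had 83.4, 85.3 and 115 CPM in Notch1f/f, 59.4, 76.8 and 59.9 CPM in DNMAML, and 78.8, 76.8 and 82.4 CPM in WT libraries. Here the Notch1f/f libraries were above all libraries of the other genotypes, by 0.53 against DNMAML (SE 0.15, adjusted p = 0.529) and 0.26 against WT (SE 0.15, adjusted p = 0.532) on the log2 scale. Notch1f/f replicate 1 was only just above WT replicate 3. Aldoa had 255, 273 and 340 CPM in Notch1f/f, 295, 232 and 265 CPM in DNMAML, and 342, 309 and 338 CPM in WT libraries. The DNMAML libraries lay below all WT libraries, by -0.32 (SE 0.14, adjusted p = 0.810), while the Notch1f/f libraries overlapped WT. The groups of the other members of these steps overlapped in every comparison. The carrier Slc2a1 ranged from 7.56 to 19.4 CPM and Pfkfb4, a relative of Pfkfb3, from 0.709 to 11.6 CPM over the 9 libraries. Aldoc, an aldolase known from brain, had at most 1.83 CPM, and Pfkm and Pfkp, the muscle- and platelet-type phosphofructokinases, kept within 27.2 to 33.9 and 64.9 to 81.0 CPM.

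The payoff steps showed a split inside the Notch1f/f genotype. Gpi1 of the preparatory steps is given with them; it, Gapdh and Ldha were singled out after their values were seen. Gapdh, which makes the NADH of the pathway, had 122, 238 and 205 CPM in Notch1f/f, 133, 147 and 122 CPM in DNMAML, and 149, 116 and 145 CPM in WT libraries. Pkm, whose reaction yields pyruvate and ATP, had 250, 438 and 355 CPM in Notch1f/f, 306, 253 and 247 CPM in DNMAML, and 255, 249 and 244 CPM in WT libraries. Ldha, which turns pyruvate into lactate, had 114, 239 and 189 CPM in Notch1f/f, 131, 142 and 111 CPM in DNMAML, and 111, 86.4 and 131 CPM in WT libraries. In these 3 genes Notch1f/f replicates 2 and 3 were above every DNMAML and WT library, and Notch1f/f replicate 1 was among them. Gpi1, the isomerase of glucose phosphate, had 204, 319 and 286 CPM in Notch1f/f, 199, 229 and 205 CPM in DNMAML, and 196, 188 and 213 CPM in WT libraries, with the same order. The log2 differences between Notch1f/f and WT were 0.72 for Ldha (SE 0.25, edgeR adjusted p = 0.217), 0.48 for Pkm (SE 0.18, adjusted p = 0.249), 0.47 for Gapdh (SE 0.21, adjusted p = 0.366) and 0.44 for Gpi1 (SE 0.16, adjusted p = 0.226).

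Leaving out Notch1f/f replicate 1 changed these calls. It was the lowest of the 3 Notch1f/f libraries in each of the 6 genes called below, so its removal was bound to raise their differences. The adjusted p of that fit are therefore no further support for the split. In that fit Ldha (log2 difference 0.96, adjusted p = 0.0182), Gapdh (0.69, adjusted p = 0.0277), Gpi1 (0.60, adjusted p = 0.028), Pkm (0.67, adjusted p = 0.031), Hif1a (0.88, adjusted p = 0.0227) and Ndrg1 (0.98, adjusted p = 0.0467) rose against WT in edgeR's test, 6 of 37 members beside 1.81% of all genes called higher. Across the settings tried the adjusted p lay between 0.000471 and 0.609 for Ldha, 0.0277 and 0.829 for Gapdh, 0.028 and 0.641 for Gpi1, and 0.031 and 0.708 for Pkm. The lowest value of Ldha came from edgeR's fit without a filter on low counts. Replicate 1 was also the Notch1f/f library with the lowest sum of cell cycle markers, as given above. DNMAML libraries had sums of those markers of 192 to 245 CPM, and their Gapdh, Pkm, Ldha and Gpi1 overlapped WT. Notch1f/f replicate 1 differed from replicates 2 and 3 in other ways too. It had counts in 25562 genes, against 21002 and 21865. Its sum of 7 alveolar epithelium markers was 144 CPM, against 413 and 1008 CPM. The part of cell division, or of these other differences, in the glycolysis values was not tested. Over the whole payoff group, the median log2 difference between Notch1f/f and WT was 0.26 with all libraries and 0.41 without Notch1f/f replicate 1.

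**Figure D3:**
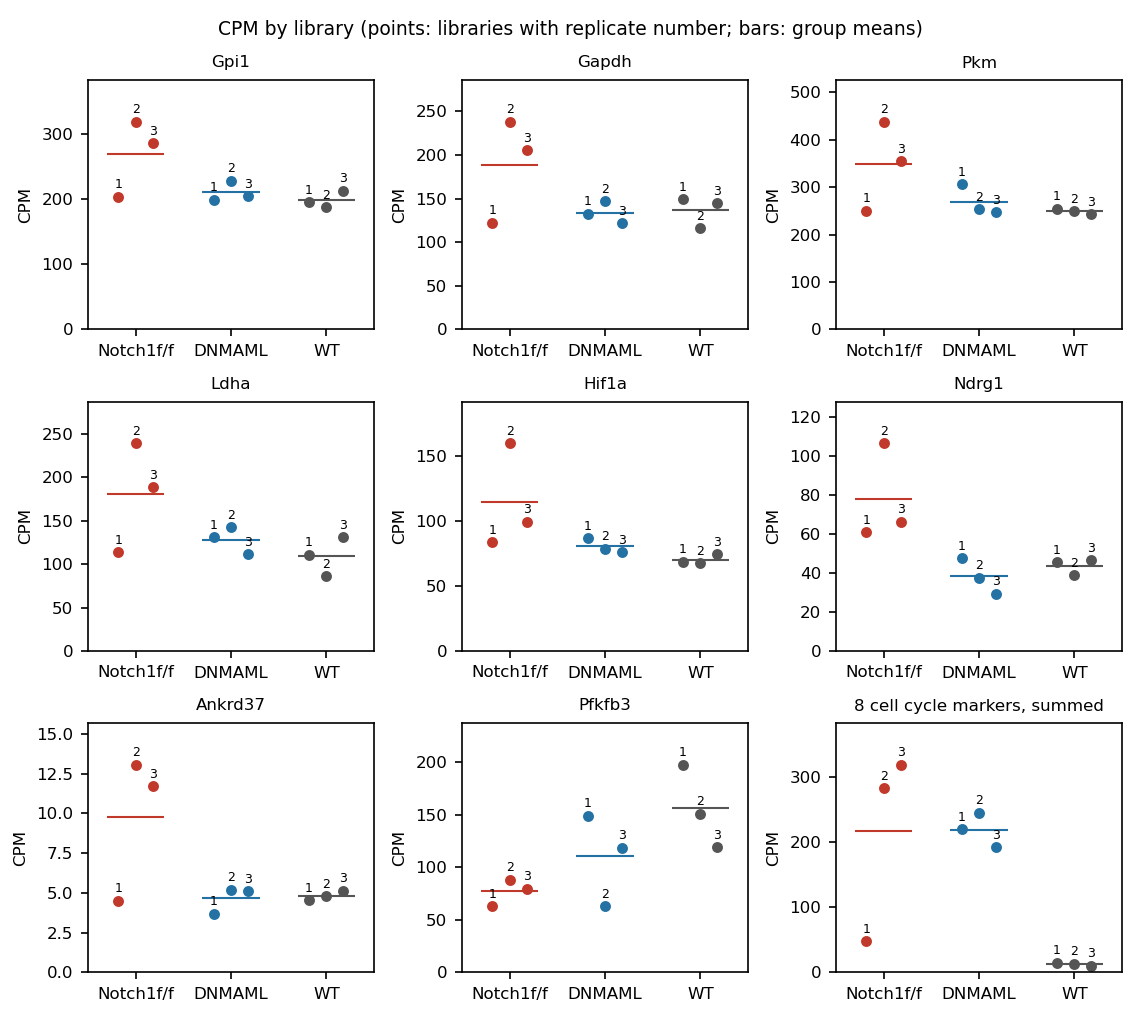
CPM in each library (points, with the replicate number) and group means (bars) for Gpi1, Gapdh, Pkm, Ldha, Hif1a, Ndrg1, Ankrd37 and Pfkfb3, and for the sum of 8 cell cycle markers. Notch1f/f replicates 2 and 3 lie above every WT library in all panels but that of Pfkfb3, where all 3 Notch1f/f libraries lie below every WT library.

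Eno1, Pgk1 and Tpi1, also taken up after their values were seen, had the same split. Eno1, the main enolase, had 81.1, 115.7 and 109.8 CPM in Notch1f/f, 83.2, 88.1 and 78.3 CPM in DNMAML, and 84.3, 69.9 and 88.1 CPM in WT libraries, a log2 difference of 0.34 between Notch1f/f and WT (SE 0.15, edgeR adjusted p = 0.350). Pgk1, the first ATP-yielding enzyme of the pathway, had 31.9, 49.9 and 56.7 CPM in Notch1f/f, 47.1, 38.3 and 43.5 CPM in DNMAML, and 38.8, 40.8 and 46.7 CPM in WT libraries, a log2 difference of 0.13 (SE 0.20, adjusted p = 0.866). Tpi1, triose phosphate isomerase of the preparatory steps, had 44.7, 81.1 and 77.9 CPM in Notch1f/f, 61.6, 56.2 and 48.8 CPM in DNMAML, and 60.8, 45.2 and 65.1 CPM in WT libraries, a log2 difference of 0.25 (SE 0.22, adjusted p = 0.717). In all 3 genes Notch1f/f replicates 2 and 3 were above every DNMAML and WT library, while Notch1f/f replicate 1 was the lowest of the 9 libraries for Pgk1 and Tpi1 and lay among the other genotypes for Eno1. Pgam1, phosphoglycerate mutase, had 26.2, 29.1 and 37.4 CPM in Notch1f/f, 31.0, 31.5 and 33.6 CPM in DNMAML, and 30.0, 23.0 and 28.3 CPM in WT libraries, so that each DNMAML library was above each WT library, by 0.24 on the log2 scale (SE 0.17, adjusted p = 0.999). Eno2, the neuronal enolase, had 2, 0 and 0 counts in Notch1f/f, 32, 4 and 6 counts in DNMAML, and 2, 16 and 12 counts in WT libraries. At so few counts no fold is given.

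Ldhb, the heart-type lactate dehydrogenase subunit, also taken up after its values were seen, had 0.895, 3.37 and 10.03 CPM in Notch1f/f, 9.63, 2.097 and 7.53 CPM in DNMAML, and 9.15, 4.23 and 14.5 CPM in WT libraries. The sum of 7 alveolar epithelium markers was 144, 413 and 1008 CPM in Notch1f/f, 1198, 169 and 1527 CPM in DNMAML, and 1364, 349 and 3184 CPM in WT libraries, with 0 of 7 genes called in any comparison. WT replicate 3 was highest in both Ldhb and these markers, and Notch1f/f replicate 1 and DNMAML replicate 2 were the lowest in both. Hk2 ranged from 0.385 to 5.51 CPM and was also highest in WT replicate 3. The part of other cells in these values was not tested, and in such bulk libraries fewer cells of a type and less RNA per cell cannot be told apart.

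**Figure D4:**
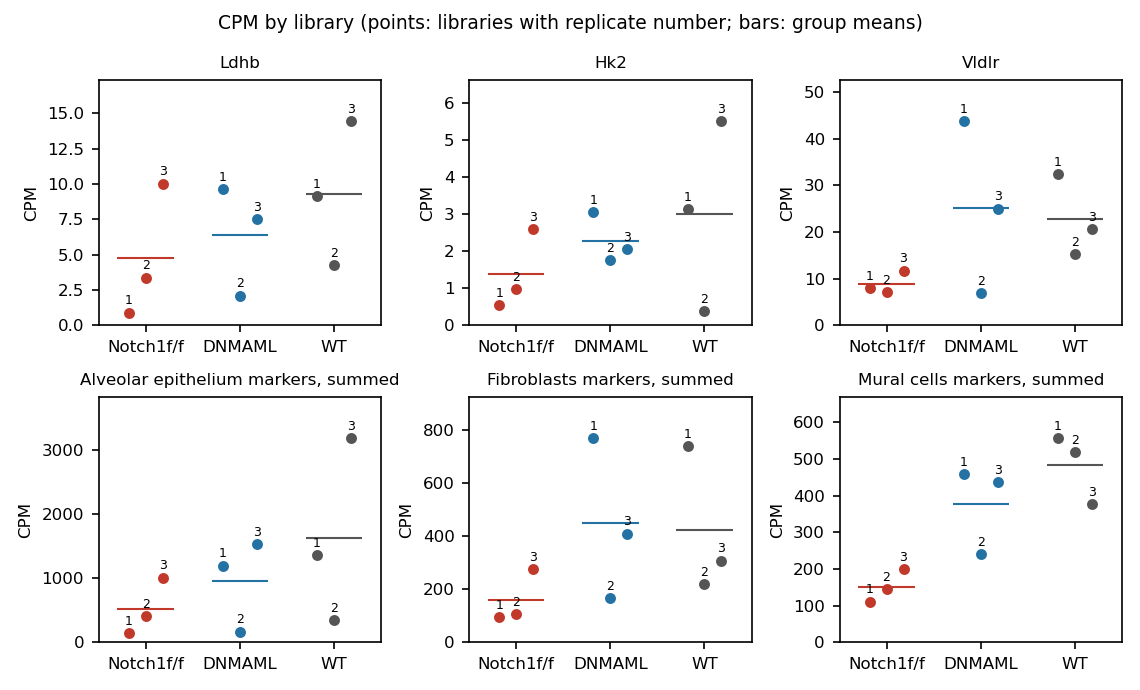
CPM in each library (points, with the replicate number) and group means (bars) for Ldhb, Hk2 and Vldlr, and for summed markers of alveolar epithelium (7 genes), fibroblasts (6 genes) and mural cells (8 genes). WT replicate 3 is highest for Ldhb, Hk2 and the epithelial sum, and DNMAML replicate 1 is highest for Vldlr and the fibroblast sum.

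The pyruvate dehydrogenase kinases, which hold pyruvate back from the mitochondrial citrate cycle, were led by Pdk2. Its level was 26.9, 17.4 and 35.8 CPM in Notch1f/f, 29.4, 23.7 and 33.9 CPM in DNMAML, and 35.6, 47.3 and 41.4 CPM in WT libraries. Each DNMAML library was below each WT library, by -0.51 (SE 0.24, edgeR adjusted p = 0.845), and Notch1f/f differed from WT by -0.64 (SE 0.24, adjusted p = 0.257) with Notch1f/f replicate 3 level with WT replicate 1. Pdk1 stayed between 21.6 and 28.3 CPM in all libraries, and Pdk4, a kinase raised by fasting, between 1.55 and 8.26 CPM.

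Among the HIF subunits and their control, Hif1a and Epas1 lay on opposite sides of WT. Hif1a (ENSMUSG00000021109, chromosome 12, 73948149 to 73994304, GRCm39) had 83.9, 160 and 99.6 CPM in Notch1f/f, 86.9, 78.9 and 76.3 CPM in DNMAML, and 68.8, 67.7 and 74.5 CPM in WT libraries. All Notch1f/f and all DNMAML libraries were above all WT libraries, by 0.70 (SE 0.20, edgeR adjusted p = 0.120) for Notch1f/f and 0.20 (SE 0.20, adjusted p = 0.999) for DNMAML. Epas1 (ENSMUSG00000024140, chromosome 17, 87061128 to 87140838, GRCm39), the alpha subunit known for its high level in lung endothelium, had 6213, 3819 and 6295 CPM in Notch1f/f, 6201, 6433 and 6801 CPM in DNMAML, and 8323, 8323 and 7325 CPM in WT libraries. Here every Notch1f/f and DNMAML library was below every WT library, by -0.55 (SE 0.19, adjusted p = 0.209) for Notch1f/f and -0.30 (SE 0.19, adjusted p = 0.999) for DNMAML. In both genes Notch1f/f replicate 2 was the library farthest from WT. With DESeq2 Hif1a rose in Notch1f/f against WT (adjusted p = 0.0444), and across the settings tried its adjusted p lay between 0.001 and 0.337. Its lowest value came from edgeR's fit without a filter on low counts.

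Egln1, the main oxygen-sensing hydroxylase, had 58.3, 57.4 and 67.6 CPM in Notch1f/f, 73.2, 68.0 and 75.4 CPM in DNMAML, and 86.1, 69.0 and 79.5 CPM in WT libraries. The Notch1f/f libraries were below all others, by -0.36 against WT (SE 0.13, edgeR adjusted p = 0.216) and -0.24 against DNMAML (SE 0.13, adjusted p = 0.858). DNMAML replicate 2 was only just above Notch1f/f replicate 3. Arnt, the shared partner of the alpha subunits, stayed between 79.5 and 102 CPM with overlapping groups, and Vhl, which recognises the hydroxylated subunit, between 8.01 and 17.7 CPM. Egln3, a hydroxylase itself induced by HIF, had 1 to 44 counts per library and was highest in Notch1f/f replicate 1.

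Of the other hypoxia response genes, Ndrg1 (ENSMUSG00000005125, chromosome 15, 66801167 to 66841489, GRCm39), a stress-responsive cytosolic protein raised by low oxygen, had the smallest adjusted p of the 37 genes in both comparisons of Notch1f/f. Its level was 60.8, 106.5 and 66.3 CPM in Notch1f/f, 47.4, 37.6 and 29.4 CPM in DNMAML, and 45.3, 38.6 and 46.6 CPM in WT libraries. Every Notch1f/f library lay above every other library, by 0.84 against WT (SE 0.23, edgeR adjusted p = 0.107) and 1.03 against DNMAML (SE 0.23, adjusted p = 0.341). DESeq2 called Ndrg1 higher in both comparisons, with adjusted p of 0.0269 against WT and 0.0114 against DNMAML. Across the settings tried its adjusted p lay between 0.00025 and 0.372 against WT and between 4.03e-06 and 1 against DNMAML. Both lowest values came from edgeR's fit without a filter on low counts. Ddit4, an inhibitor of the growth kinase mTOR, had 25.0, 47.1 and 25.8 CPM in Notch1f/f, 18.9, 17.9 and 21.2 CPM in DNMAML, and 24.6, 16.4 and 18.8 CPM in WT libraries, a log2 difference of 0.71 from WT (SE 0.26, adjusted p = 0.229). Its Notch1f/f libraries were also above all others, replicates 1 and 3 by little and replicate 2 by far. Ddit4 is also known to respond to stress hormones. The sum of 22 handling and hormone-responsive genes was 4968, 7698 and 7985 CPM in Notch1f/f, 9549, 3792 and 9130 CPM in DNMAML, and 12604, 4831 and 10128 CPM in WT libraries, with 0 of 21 tested genes called in any comparison. Of these 22 genes only Fkbp5, Per1 and Cdkn1a were highest in Notch1f/f replicate 2, as Ddit4 was, beside 16.7% of all genes. The rest of the list, with Tsc22d3, Zbtb16, Klf9 and Sgk1, peaked in other libraries, and the sum was highest in WT replicate 1. Among the Notch1f/f libraries alone, Zbtb16 (33.4, 124 and 33.9 CPM) and Tsc22d3 (61.5, 101 and 80.5 CPM) were also highest in replicate 2. Klf9 (142, 133 and 106 CPM) and Sgk1 (806, 513 and 622 CPM) were highest in Notch1f/f replicate 1. The part of handling or hormones in the Ddit4 values was not tested.

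Ankrd37, an ankyrin repeat protein known as a HIF target and singled out after its values were seen, had 4.52, 13.1 and 11.7 CPM in Notch1f/f, 3.69, 5.19 and 5.12 CPM in DNMAML, and 4.52, 4.81 and 5.15 CPM in WT libraries. Notch1f/f replicates 2 and 3 were above every other library and replicate 1 was level with WT, as in the payoff genes. The log2 difference was 1.02 against WT (SE 0.40, edgeR adjusted p = 0.278). P4ha1, a subunit of the enzyme that hydroxylates collagen, had 34.4, 32.8 and 34.4 CPM in Notch1f/f, 38.7, 40.0 and 49.8 CPM in DNMAML, and 38.4, 44.9 and 56.2 CPM in WT libraries. The Notch1f/f libraries lay close together and below all others, by -0.46 against WT (SE 0.17, adjusted p = 0.230) and -0.34 against DNMAML (SE 0.16, adjusted p = 0.820). Bnip3, a mitophagy receptor, had 10.1, 5.89 and 7.10 CPM in Notch1f/f, 6.90, 5.09 and 6.87 CPM in DNMAML, and 13.3, 7.24 and 10.5 CPM in WT libraries; each DNMAML library was below each WT library, by -0.72 (SE 0.33, adjusted p = 0.832). Bnip3l, its more abundant relative, had 158, 126 and 192 CPM in Notch1f/f, 181, 148 and 177 CPM in DNMAML, and 187, 176 and 175 CPM in WT libraries, with overlapping groups. P4ha2, the relative of P4ha1, ranged from 17.8 to 32.9 CPM and its groups overlapped.

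Vldlr, a lipoprotein receptor, had 7.88, 7.09 and 11.7 CPM in Notch1f/f, 43.9, 6.89 and 25.0 CPM in DNMAML, and 32.4, 15.3 and 20.5 CPM in WT libraries. The Notch1f/f libraries were all below WT, by -1.36 (SE 0.59, edgeR adjusted p = 0.365), but DNMAML replicate 2 was lower still. The sum of 6 fibroblast markers was 94.3, 106.9 and 276 CPM in Notch1f/f, 768, 168 and 409 CPM in DNMAML, and 738, 218 and 307 CPM in WT libraries, with 0 of 6 called. The sum of 8 mural cell markers was 111, 145 and 200 CPM in Notch1f/f, 459, 240 and 436 CPM in DNMAML, and 557, 518 and 376 CPM in WT libraries. In edgeR's test 4 of these 8 fell in Notch1f/f against WT, beside 0.323% of all genes. Rgs5 of the same 8 went the other way, with 20.9, 21.3 and 23.1 CPM in Notch1f/f and 13.4, 13.3 and 16.2 CPM in WT libraries. Among the DNMAML libraries both sums were lowest in replicate 2, as Vldlr was, and the mural sum of every Notch1f/f library was below that of every DNMAML and WT library. The part of these cells in the Vldlr values was not tested.

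**Figure D5:**
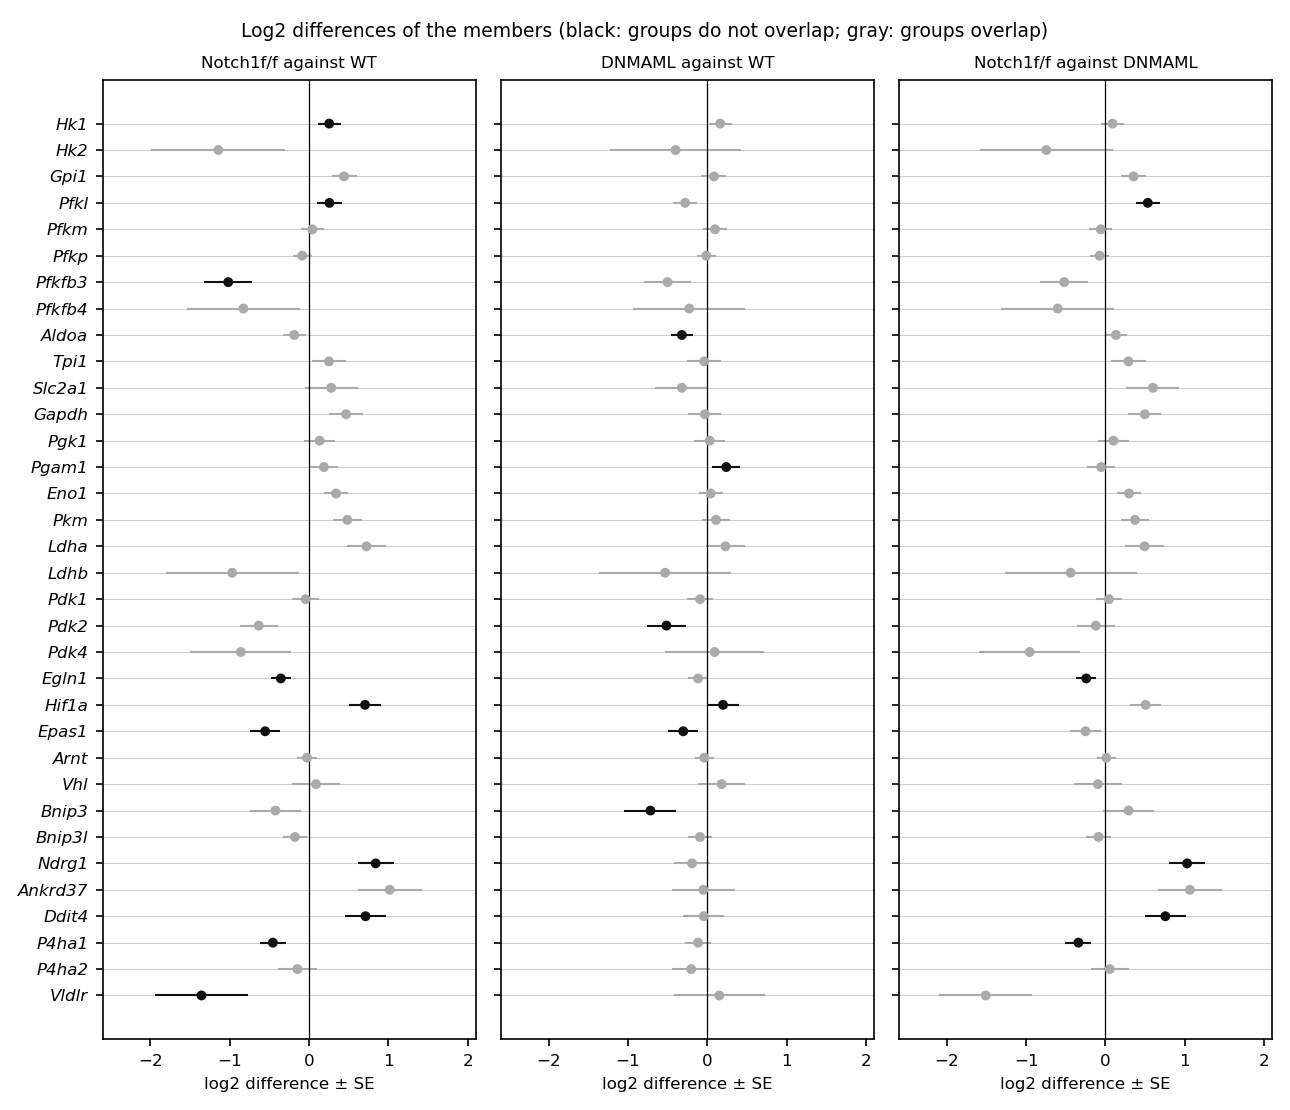
Log2 difference ± SE from edgeR for 34 members in Notch1f/f against WT, DNMAML against WT and Notch1f/f against DNMAML (Eno2, Aldoc and Egln3, which had very few counts, are left out). Black marks genes whose 2 groups of 3 libraries do not overlap: Ndrg1, Hif1a, Ddit4, Hk1 and Pfkl are higher and Pfkfb3, Epas1, Egln1, P4ha1 and Vldlr lower in Notch1f/f than in WT.

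Counting groups that do not overlap, 5 members were higher in Notch1f/f than in WT (Ndrg1, Hif1a, Ddit4, Hk1 and Pfkl), beside 8.5% of all genes, and 6 were lower (Pfkfb3, Epas1, Egln1, P4ha1, Eno2 and Vldlr), beside 9.33% of all genes. For Eno2 this rests on library size, as Notch1f/f replicate 1 and WT replicate 1 both had 2 counts. In DNMAML against WT 2 members were higher (Pgam1 and Hif1a), beside 7.58%, and 4 were lower (Aldoa, Bnip3, Pdk2 and Epas1), beside 6.84%. In Notch1f/f against DNMAML 3 members were higher (Ndrg1, Pfkl and Ddit4), beside 4.4%, and 3 were lower (Eno2, P4ha1 and Egln1), beside 5.32%. Notch1f/f replicate 2 held the highest value of all 9 libraries in 11 of 37 members, against 16.7% of all genes, and WT replicate 2 the lowest in 10, against 14.6% of all genes. Without Notch1f/f replicate 1, the members above WT with no overlap came to 14, beside 15.8% of all genes, and those above DNMAML to 14, beside 12.4%.

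The start regions of 34 members were in a RefSeq table of promoters (build GRCm38.p6, 250 bases before to 50 after each start); Bnip3l, Epas1 and Ndrg1 were not. The core letters bound by HIF, ACGTG or GCGTG on either strand, were found in at least a single start region of 29 of these 34 genes (85.3%), beside 46.7% of all 27025 genes in the table. ACGTG overlaps its own reverse complement inside CACGTG, which was counted once per strand. The letters TGGGAA, the core bound by Rbpj, the DNA-binding partner of Notch, were in 5 of 34 (14.7%), beside 28.3% of all genes. The base composition of these regions was not compared, and a match is only a description of the letters. The 4 regions printed belong to Ldha, Ankrd37 and Hif1a, highest in Notch1f/f replicate 2, and to Pfkfb3, lower in Notch1f/f than in WT, chosen after their values were seen; capitals mark the HIF core letters on either strand. Ldha (chr7:46845554-46845853, plus strand) is shown for the start with more matches of its 2, Ankrd37 lies at chr8:45999801-46000100 (minus strand), Hif1a at chr12:73907617-73907916 (plus strand), and Pfkfb3 at chr2:11502041-11502340 (minus strand), again the start with more matches of 2.
Ldha: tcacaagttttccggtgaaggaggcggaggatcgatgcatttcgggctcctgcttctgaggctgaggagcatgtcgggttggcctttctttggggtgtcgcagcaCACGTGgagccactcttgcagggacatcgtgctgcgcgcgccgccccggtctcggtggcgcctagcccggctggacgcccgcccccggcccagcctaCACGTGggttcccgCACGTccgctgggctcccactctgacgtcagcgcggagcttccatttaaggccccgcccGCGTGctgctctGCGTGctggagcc
Ankrd37: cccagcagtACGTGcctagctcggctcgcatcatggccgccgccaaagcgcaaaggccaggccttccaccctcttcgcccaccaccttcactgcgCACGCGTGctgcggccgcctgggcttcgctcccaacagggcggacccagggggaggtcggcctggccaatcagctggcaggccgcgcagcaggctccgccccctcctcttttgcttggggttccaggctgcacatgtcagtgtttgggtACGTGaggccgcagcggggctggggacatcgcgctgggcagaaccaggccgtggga
Hif1a: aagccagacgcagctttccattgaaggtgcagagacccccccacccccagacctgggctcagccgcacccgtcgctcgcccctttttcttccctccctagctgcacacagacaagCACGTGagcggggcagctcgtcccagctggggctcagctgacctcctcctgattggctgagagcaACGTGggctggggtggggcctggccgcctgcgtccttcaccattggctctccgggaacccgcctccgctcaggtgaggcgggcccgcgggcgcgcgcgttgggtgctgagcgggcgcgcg
Pfkfb3: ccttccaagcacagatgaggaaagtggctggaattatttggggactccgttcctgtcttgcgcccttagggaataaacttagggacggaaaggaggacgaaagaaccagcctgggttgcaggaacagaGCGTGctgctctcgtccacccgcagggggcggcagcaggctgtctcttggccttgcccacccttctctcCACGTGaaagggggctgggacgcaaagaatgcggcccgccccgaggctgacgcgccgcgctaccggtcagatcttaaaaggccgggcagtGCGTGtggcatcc
Ldha has 5 separate stretches in capitals, Ankrd37 3, Hif1a 2 and Pfkfb3 3. The region of Pfkfb3, whose level was lower in Notch1f/f than in WT libraries, also holds the HIF core letters. No region of these 4 holds TGGGAA. The bearing of these letters on the levels was not tested.

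Other genes of the same pathways were read from 2 further lists. Of 36 other glycolysis and pyruvate genes (further isoforms, lactate and pyruvate carriers, the pyruvate dehydrogenase complex and the pentose phosphate route), 33 were tested and 0 passed in any comparison, with a median log2 difference of 0.02 between Notch1f/f and WT. Of 38 other hypoxia response names, 36 were tested and 1 passed. Hilpda, a lipid droplet protein induced by HIF, fell in Notch1f/f to 57.2, 25.0 and 56.9 CPM, against 145, 143 and 152 CPM in WT libraries, a log2 difference of -1.66 (SE 0.27, edgeR adjusted p = 0.0284). DNMAML libraries had 69.1, 81.0 and 94.0 CPM of Hilpda, also below all WT libraries, with a difference of -0.85 (SE 0.27, adjusted p = 0.525). The HIF target Hilpda thus lay below WT in Notch1f/f libraries, as did Pfkfb3, Egln1, P4ha1 and Vldlr among the members. The HIF targets Ndrg1, Ddit4 and, in replicates 2 and 3, Ankrd37 and Ldha had values above WT. Of the 36 tested genes of this list, 12 log2 differences between Notch1f/f and WT lay above 0 and 24 below. The median log2 difference of this list between Notch1f/f and WT was -0.10, beside 0.02 over all genes.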

How the data were processed

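Total RNA was treated with DNase and freed of ribosomal RNA, and all strand-specific libraries were made together, per the labels' protocols. The values are raw counts per gene, deposited as one table made with featureCounts 2.0.1 and Ensembl release 107 on GRCm39, per the file headers. STAR 2.7, featureCounts and the build mm10 are named in the submitters' processing notes. The recorded command sets no option for strand, read pairs or multiply mapped reads, per the file headers, and 76.6% to 89.0% of counts below 200 were even, so both reads of a pair may have been counted. Symbols came from a GENCODE annotation on the earlier build GRCm38, which held 52073 of the 56748 identifiers. Columns were matched to samples by title.

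Genes were filtered by edgeR's filterByExpr, scaled by TMM and tested with edgeR 4.0.16 (R 4.3.3; robust quasi-likelihood fit, all 9 libraries, genotype only). CPM is the count over the TMM-scaled library size, and CPM per kilobase divides it by the exon length in the deposited table. Each SE is the log2 difference over the square root of F and so restates the test. Alternatives used DESeq2 1.42.0, limma 3.58.1, other scaling and filters, the replicate number as a block and each library left out; the test was checked on simulated counts. Values in every library were given for members whose groups did not overlap, up to 10 per comparison by unadjusted p, and for the highest member of each role; exceptions are named. The members, lists and roles were chosen with earlier results of these data known. Replicate numbers are not explained in the labels. Deviations from group means correlated at 0.179 to 0.344 between same-numbered WT and DNMAML libraries, and -0.27 to 0.0774 between differently numbered ones, so the number was taken to pair those. The differences, SE and p of single members in DNMAML against WT come from the fit without that pairing. Same-numbered Notch1f/f libraries gave -0.13 to 0.191 with WT and -0.12 to 0.212 with DNMAML and were not taken as paired. Differently numbered ones gave -0.312 to 0.352 with WT and -0.354 to 0.306 with DNMAML. The highest values were those of Notch1f/f replicate 1 with WT replicate 2 and with DNMAML replicate 2. Libraries of a genotype differed from each other beyond sampling noise.

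Counts of genes with near-identical copies are uncertain. Transcripts compared by BLAST 2.17.0 (at least 95% identity over 100 bases) matched Gapdh to 81 other genes, 76 of them pseudogenes, Ldha to 5 and Pgk1 to 4 pseudogenes. Pdk4 matched 9 other genes, Gpi1 and Bnip3 5 each, Eno1 3, and Pkm, Hif1a and Ndrg1 2 each. Hk1, Pfkp, Tpi1, Pgam1, Ldhb, Slc2a1, Bnip3l and Ankrd37 matched 1 each. Other genes overlapped 26.4% of the exon bases of Ankrd37, 22.3% of Bnip3, 15.3% of Pkm, 8.43% of Ndrg1 and 8.11% of Hif1a.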

Additional observations from a re-analysis of the deposited data

How the results depend on the processing

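Of the 27 log2 differences recomputed, which leave out Ankrd37, Eno1, Pgk1, Tpi1 and Ldhb in each comparison and Pdk2 and Pfkl in Notch1f/f against WT, none reversed in a setting that gave a value. No member passed in DNMAML against WT in any setting. In Notch1f/f against WT, members called higher numbered 3 without a filter on low counts (Ldha, Hif1a and Ndrg1), beside 2% of all genes. They numbered 2 with DESeq2 (Hif1a and Ndrg1), beside 2.91%. When single libraries were left out they numbered 0 to 6, beside 0.0386% to 1.81% of all genes. Members called lower numbered 2 without a filter (Pfkfb3 and Vldlr), beside 2.26%, and 1 with DESeq2 (Pfkfb3), beside 2.54%. With only the 6 libraries compared 1 was called lower (Pfkfb3), beside 0.452%. When single libraries were left out 0 to 1 were called lower, beside 0.0241% to 0.788% of all genes. In Notch1f/f against DNMAML, 1 was called higher (Ndrg1) and 1 lower (Vldlr) without a filter, beside 0.529% and 1.56% of all genes. DESeq2 called 1 higher (Ndrg1), beside 0.267%. When any library was left out 0 members were called, beside at most 0.0486% of all genes higher and 0.102% lower. The fit without a filter gave nearly the same log2 differences with smaller adjusted p (Pfkfb3 -1.01, Vldlr -1.35 against WT), and it called 2% of all genes higher and 2.26% lower, so its p values are not read as spread between libraries. With the replicate block, 0 members were called in any comparison, while all genes called in DNMAML against WT in its 6 libraries came to 212 higher and 98 lower; a block in all 9 libraries also called 0 members. Groups without overlap depended on single libraries: leaving out each in turn gave 2 to 6 members higher (7.53% to 13.4% of all genes) and 4 to 7 lower (6.46% to 11.8%) in DNMAML against WT, 5 to 14 higher (8.21% to 16.1%) and 6 to 11 lower (8.77% to 16.8%) in Notch1f/f against WT, and 3 to 14 higher (4.24% to 12.4%) and 3 to 6 lower (5.05% to 13.8%) in Notch1f/f against DNMAML. The median log2 difference of the 12 preparatory genes in DNMAML against WT was -0.25 and became 0.06 without WT replicate 3; that in Notch1f/f against WT was -0.02 and became 0.03 without Notch1f/f replicate 1. RLE scaling in place of TMM moved the median of all genes by under 0.01.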

Other observations

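Slc2a3, a glucose carrier of platelets and leukocytes from the list of other glycolysis genes, was noticed after its values were seen. It had 28.7, 3.72 and 37.4 CPM in Notch1f/f, 110, 6.19 and 8.04 CPM in DNMAML, and 46.5, 7.43 and 11.2 CPM in WT libraries. Pf4, a platelet chemokine, had 29.9, 3.28 and 46.9 CPM in Notch1f/f, 118, 4.29 and 8.99 CPM in DNMAML, and 37.2, 6.28 and 13.2 CPM in WT libraries. Both genes were highest in DNMAML replicate 1 and lowest in Notch1f/f replicate 2, and the part of platelets in Slc2a3 was not tested. Vegfa, the HIF target that encodes an endothelial growth factor, had 815, 359 and 568 CPM in Notch1f/f, 667, 987 and 694 CPM in DNMAML, and 1009, 1171 and 954 CPM in WT libraries, without passing in any comparison. Its Notch1f/f libraries were below every WT library, as those of Hilpda were.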
